A study of Drosophila melanogaster with 12 samples.

Results

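In heads of *Drosophila melanogaster*, 15 genes whose current symbol is only a CG number separated the temperatures. Each measured lower on all 3 arrays taken at 18 °C than on any of the 9 taken at 25 °C. A CG number is the name that genome annotation gives to a predicted gene. It stays the symbol until another is adopted, although synonyms may exist. The members were chosen by their values on all 12 arrays. The highest of CA2, CA6 and CA10 had to lie below the lowest of the other 9 arrays, the mean of the 9 had to exceed the mean of the 3 by at least 0.1 (log2), and the probe set had to carry 1 annotated gene with a CG number as its symbol. CG5853 and CG12116 were left out by name. Of 4909 probe sets with such a symbol, which stand for 4480 genes, 15 met both limits, or 0.306%. Among all 13966 probe sets apart from controls, named genes included, 53 met the same limits, or 0.379%. The share among genes with only a CG number was therefore close to that of the whole array, and since these values selected the members, the difference between temperatures is given below as a description without a test.

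The flies were of the genotype *y w*, whose circadian clock is functional, and they were kept in darkness throughout. They developed at 25 °C until early pupal stages, passed into a cycle of 12 h at 18 °C and 12 h at 25 °C, and stayed in it for 4 d after eclosion. The 6 CA arrays cover the last day of this thermocycle, with CA2, CA6 and CA10 in the cold phase (cryophase, 18 °C) and CA14, CA18 and CA22 in the warm phase (thermophase, 25 °C), the number being the hours since cooling began. The 6 AA arrays (AA2 to AA22) cover the same hours of the next day, when the temperature stayed at 25 °C, so AA2, AA6 and AA10 form a subjective cryophase and AA14, AA18 and AA22 a subjective thermophase. Each array held RNA of pooled heads that had been shaken off frozen flies and caught on sieves. The sex of the flies is not given in the sources used here. Each time point was measured on 1 array, so every spread below is a spread between times of day, and with 3 cold arrays from a single cold phase, temperature cannot be told apart from anything else that set those hours of that day apart.

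The arrays differed in the levels of genes that mark other body parts, and CA10 and CA18 stood apart in this. Whether tissue carried over with the heads or regulation within them set these levels was not tested. The mean log2 deviation of 66 markers of muscle, gut and the male reproductive tract, called the body-tissue index here, had its minimum on CA10 (-1.45) and its maximum on CA18 (1.07). The remaining 10 arrays ranged from -0.38 to 0.75. The mean index was -0.49 at 18 °C and 0.16 at 25 °C, a difference of -0.66. Array medians lay between 5.558 and 5.603 (log2), and head markers were present, with a median level of 9.40 for 11 photoreceptor genes and 5.82 for 11 neuronal genes. Markers of the other body parts were present as well, with a median level of 9.52 for 27 gut enzymes, 7.34 for 17 muscle genes and 7.02 for 22 male genes. Precision is limited throughout by how few arrays there are.

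Flies do not hold a constant body temperature, so a thermocycle reaches every cell of the head, among them photoreceptors, neurons, glia and fat body. Temperature changes the speed of transcription and of RNA decay, and besides heat-shock proteins many transcripts without any link to the clock are known to follow it. A thermocycle can also set the circadian clock, after which a clock-driven transcript keeps its rhythm at constant temperature. A transcript that tracks temperature alone would be low at CA2 to CA10 and show no dip at AA2 to AA10.

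The differences were small. The mean at 25 °C exceeded that at 18 °C by 0.11 to 0.40 (log2, median 0.163), which is 1.08-fold to 1.32-fold, and it was at least 0.2 in 5 genes (CG5290, CG11113, CG32109, CG12828 and CG10254). Over all 4909 probe sets with a CG number the median difference was -0.01, with quartiles of -0.07 and 0.07. On average over the 15 genes, CA2 lay 0.17, CA6 0.18 and CA10 0.22 below the mean of the warm arrays, while the 9 warm arrays stayed between -0.03 and 0.03 of it. The rule fixed the direction of this step, and the warm arrays centre on 0 because deviations were taken from their own mean. Every member shows the step in the plot of levels by array, as the rule requires, but the warm arrays of a single gene often spread more widely than the step itself. In 12 of 15 genes the range over the 9 warm arrays was larger than the difference between the temperatures, the exceptions being CG5290, CG10973 and CG7236.

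**Figure D1:**
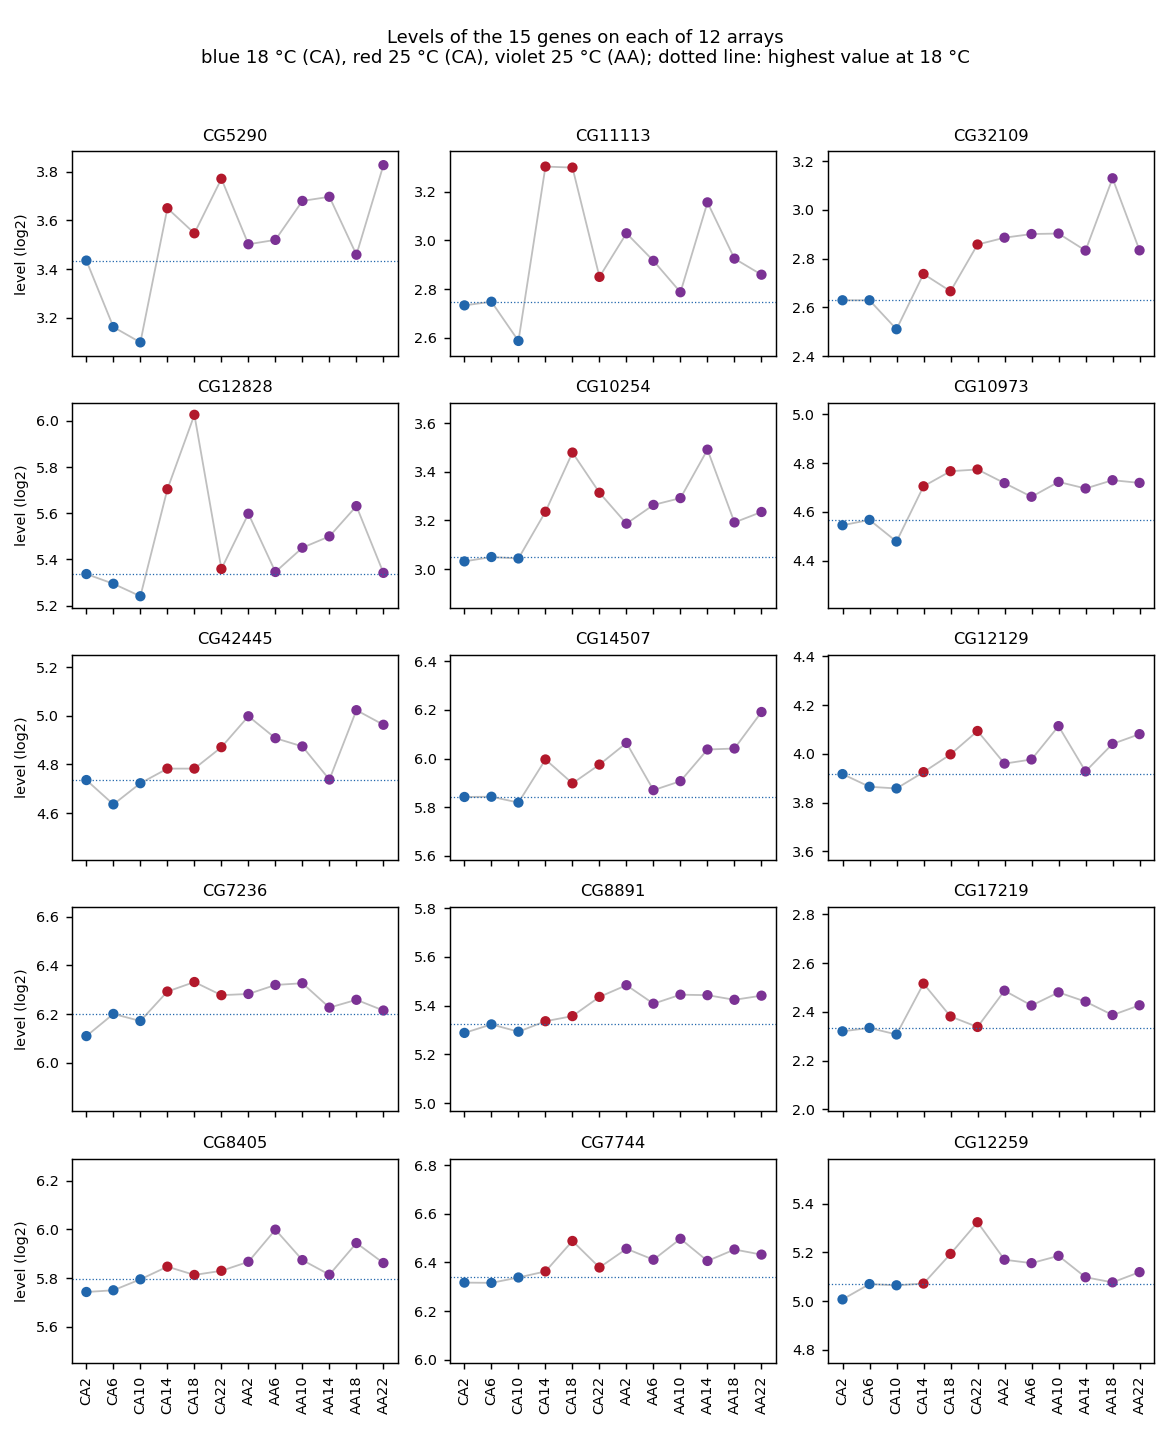
Level (log2, vertical axis, each panel with its own range) of the 15 genes on the 12 arrays in order of time (horizontal axis). Blue points are the 3 arrays at 18 °C, red the 3 CA arrays at 25 °C and violet the 6 AA arrays at 25 °C, and the dotted line marks the highest cold value, which all 9 warm values exceed by 0.002 (CG12259 and CG42445) to 0.137 (CG10254).

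Several members resemble enzymes that are known from other species. CG10254 corresponds to UBE2O, in mammals a large ubiquitin-conjugating enzyme that marks proteins for destruction. It measured 3.03, 3.05 and 3.04 on CA2, CA6 and CA10, then 3.24, 3.48 and 3.31 on CA14, CA18 and CA22, and from 3.19 to 3.49 on the AA arrays (median 3.25). Its cold values were the tightest of all members (3.04 ± 0.01, SD, n = 3, against 3.30 ± 0.11, n = 9), and its gap of 0.137 between the highest cold and the lowest warm array was the only one above 0.1. CG10254 was also the only member with another probe set. That one passed the filter on low values described below, and it did not separate the temperatures. The other probe set measured 7.03, 7.09 and 6.68 on the cold arrays against 6.96 to 7.45 on the warm ones. Its mean was 0.19 higher at 25 °C (7.13 ± 0.15, n = 9, against 6.93 ± 0.22, n = 3), but 3 of the 9 warm arrays lay below its highest cold value, and CA10 alone was lower than all of them. The levels of both probe sets come from different probes and are not compared with each other.

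CG14507 belongs to the secreted phospholipases A2, which release fatty acids from membrane lipids. Its cold values were nearly identical, at 5.84, 5.84 and 5.82, against 5.996, 5.90 and 5.98 on CA14, CA18 and CA22 and 5.87 to 6.19 on the AA arrays (median 6.04). The difference was 0.16, or 1.12-fold, and the lowest warm array, AA6, cleared the highest cold one by 0.027. CG7236 is a kinase of the CDKL group, relatives of the cell-cycle kinases. It measured 6.11, 6.20 and 6.17 in the cold, 6.29, 6.33 and 6.28 in the CA thermophase and 6.22 to 6.33 on the AA day (median 6.27), a difference of 0.12. AA22 at 6.215 was barely above CA6 at 6.201.

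CG8891 corresponds to ITPA, which in human cells removes inosine triphosphate from the nucleotide pool. It gave 5.29, 5.32 and 5.29 at 18 °C, then 5.34, 5.36 and 5.44 on CA14, CA18 and CA22, and 5.41 to 5.48 over the AA day (median 5.44). Both of its lowest warm arrays were thus the first samples after warming, CA14 and CA18. CG17219 carries the synonym METTL18, in human cells a methyltransferase that modifies a histidine of a ribosomal protein. It measured 2.32, 2.33 and 2.31 in the cold and 2.34 to 2.52 at 25 °C (median 2.43), and CA22 exceeded CA6 by only 0.004.

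The largest difference belonged to CG5290, which measured 3.44, 3.16 and 3.10 on CA2, CA6 and CA10, 3.65, 3.55 and 3.77 in the CA thermophase and 3.46 to 3.83 on the AA arrays (median 3.60). The mean was 3.23 ± 0.18 (SD, n = 3) in the cold and 3.63 ± 0.13 (n = 9) in the warmth, a difference of 0.40. Much of it came from CA6 and CA10, as CA2 lay only 0.024 below AA18. CG11113 followed with 2.73, 2.75 and 2.59 in the cold, 3.30, 3.30 and 2.85 in the CA thermophase and 2.79 to 3.16 on the AA arrays (median 2.92), a difference of 0.32. It was highest on CA14 and CA18, while CA22 and AA10 were close to the cold arrays. CG32109 gave 2.63, 2.63 and 2.51, then 2.74, 2.67 and 2.86, and 2.83 to 3.13 on the AA day (median 2.89), a difference of 0.27, and here all 6 AA arrays lay above CA14 and CA18.

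CG12828 was lowest on CA10 at 5.24, with 5.34 on CA2 and 5.30 on CA6. It measured 5.70 on CA14, 6.03 on CA18 and 5.36 on CA22, and lay between 5.34 and 5.63 on the AA arrays (median 5.48). The difference was 0.26, yet AA22, AA6 and CA22 (5.34, 5.35 and 5.36) all sat just above CA2, and CA14 and CA18 were far above the rest. CG10973 showed the opposite picture, with 4.54, 4.57 and 4.48 in the cold and a narrow band at 25 °C of 4.70, 4.77 and 4.77 in CA and 4.66 to 4.73 in AA (median 4.72). Its difference of 0.19 between 4.53 ± 0.05 (SD, n = 3) and 4.72 ± 0.03 (n = 9) exceeded both ranges, and its gap of 0.095 was next to that of CG10254.

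CG42445, formerly annotated as CG7498, measured 4.74, 4.64 and 4.72 at 18 °C, 4.78, 4.78 and 4.87 in the CA thermophase and 4.74 to 5.02 on the AA day (median 4.94). All of its AA arrays but AA14 lay above CA22, and AA14 at 4.738 exceeded CA2 at 4.736 by no more than the last digit. The remaining members, CG12129, CG8405, CG7744 and CG12259, differed by 0.11 to 0.13, and their gaps between cold and warm arrays were 0.002 to 0.025. CG7744 measured 6.32, 6.32 and 6.34 in the cold and 6.36 to 6.50 at 25 °C (median 6.43). CG12259 gave 5.01, 5.07 and 5.07 at 18 °C and 5.07, 5.19 and 5.32 on CA14, CA18 and CA22, with 5.08 to 5.19 on the AA arrays (median 5.14).

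The limits of the rule cut through a continuum. Just inside the limit on overlap were CG12259 and CG42445, each with a gap of 0.002, and CG17219 with 0.004. Just outside it were CG14330, CG32262 and CG5886, with gaps of -0.002, -0.003 and -0.005, the lowest warm array being below the highest cold one, although the mean of CG5886 differed by 0.31 and that of CG32262 by 0.26. Inside the limit on the mean were CG12259 and CG7744 (0.108 each) and CG8405 (0.110), and the only separated gene outside it was CG13919 with 0.084. In 8 of the 15 genes the gap was 0.02 or less. After each array was set to a common median, CG12129, CG12828, CG17219, CG42445 and CG7236 no longer met the rule and 4 other genes did.

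The members were not the genes with the largest drop in the cold. A further 875 probe sets with a CG number had a mean at least 0.1 lower at 18 °C but with overlapping arrays, and CG5290, the largest member, ranked only 145th of 4909 by its difference, with CG12259 in place 839. None of the 20 largest differences, 0.91 to 1.51, came from separated arrays. Of these 20, 19 followed the body-tissue index over the 9 warm arrays with a Pearson correlation of at least 0.9. The rule leaves out genes that rank all 12 arrays as this index does, as explained below. Probe sets that were highest on all 3 cold arrays by the mirrored rule were more numerous, both among those with a CG number (72 of 4909) and over the whole array (194 of 13966). Of the 15 members, 6 (40%, against 22.3% of all probe sets with a CG number) did not pass the filter on low values, which asks for most of the 12 values to lie above the 20th percentile of the array, 4.144 to 4.194. These 6 were CG5290, CG11113, CG32109, CG10254, CG12129 and CG17219, and they include 4 of the 5 genes with a difference of at least 0.2. A value below that percentile is near the background of the array. There a log2 difference can understate or blur a change in RNA, or reflect background alone without any change.

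**Figure D2:**
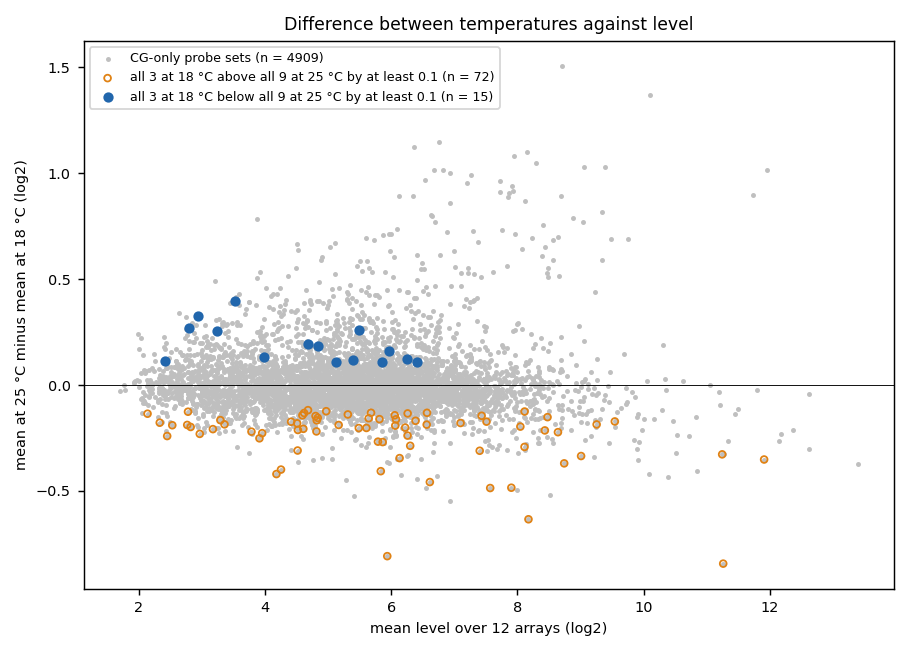
Mean at 25 °C minus mean at 18 °C (log2, vertical axis) against the mean level over 12 arrays (log2, horizontal axis) for 4909 probe sets with a CG number (grey). The 15 members (blue) lie between 0.11 and 0.40 at levels of 2.40 to 6.40, below many overlapping probe sets with larger differences, and the 72 probe sets of the mirrored rule are circled in orange.

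Because the body-tissue index also differed between the temperatures, each member was set beside it. Over the 9 warm arrays, which share a temperature, the correlation of a member with the index ran from -0.73 to 0.90 with a median of -0.22, close to the median of -0.23 over all probe sets with a CG number. It was 0.93 in the median of the 875 overlapping probe sets. The rule itself contributes to this contrast. The index was higher on CA2 (0.06) than on CA22, AA2, AA6, AA10 and AA22 (-0.38 on AA22). A gene that closely followed the index would therefore overlap between temperatures and could not be a member. CG11113 (0.90), CG12828 (0.88) and CG10254 (0.51) moved with the index. The other probe set of CG10254, which passed the low-value filter, did so more closely (0.80) and was lowest on CA10 and highest on CA18. CG8891 (-0.73), CG12129 and CG42445 (both -0.57) moved against the index. With the index as a term in the fit, added after seeing the data, the difference between 25 and 18 °C was 0.096 to 0.39. The largest shifts were from 0.32 to 0.16 in CG11113 and from 0.26 to 0.096 in CG12828, and CG5290 went from 0.40 to 0.39. Without CA10 and CA18, 74 probe sets with a CG number met the rule, but dropping arrays can only ease the demand for separated values. The correlations and the refitted differences come from the same arrays that selected the members, so they describe these genes and are no check on their difference. None of the 15 is in the marker lists. Of the markers themselves, 25 of 27 gut enzymes, 22 of 22 male genes and 16 of 17 muscle genes had a lower mean at 18 °C, with 0 separated. Over the whole array 57 of 13966 probe sets were separated, so 0 in lists of this size is near that share. The mean deviation of each list was lowest on CA10 and highest on CA18. Gut genes lay between -1.61 and 0.13 at 18 °C and between -0.35 and 1.13 at 25 °C, male genes between -1.64 and -0.02 and between -0.58 and 1.35, and muscle genes between -0.94 and 0.04 and between -0.23 and 0.61. No marker of 11 for photoreceptors and 1 of 8 for glia was lower in the cold, as were 4 of 11 for neurons, 3 of 9 for head fat body and 13 of 16 for ovary. In pooled heads, fewer cells of a type and less RNA per cell cannot be told apart, and the part of these tissues in the members' differences was otherwise not tested.

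**Figure D3:**
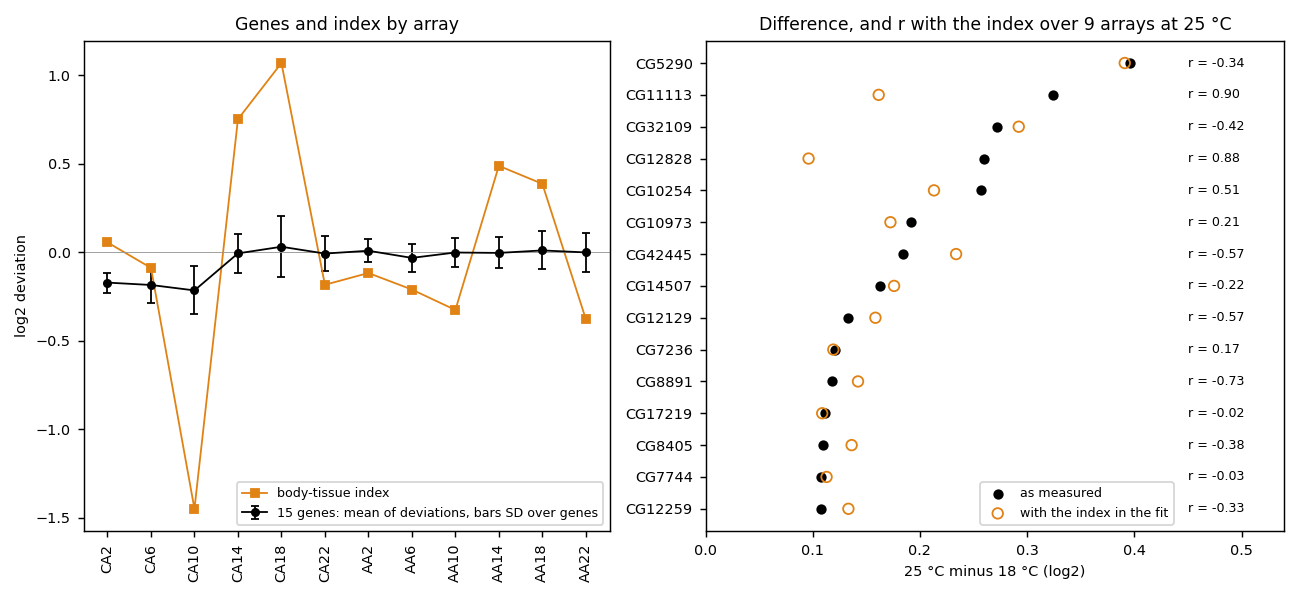
Left, mean log2 deviation of the 15 genes from their mean at 25 °C (black, bars give the SD over genes) and body-tissue index (orange) on each array. Right, difference between 25 and 18 °C (log2) of each gene as measured (filled) and with the index in the fit (open), with the correlation of the gene with the index over the 9 warm arrays printed as r. The cold arrays lie 0.17 to 0.22 below 0 on the left, the side that the rule prescribes, and CG11113 and CG12828 move farthest on the right.

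Apart from the step between temperatures, the members had no common course over the warm arrays. Over the 9 warm arrays, the 105 pairs of members had a median correlation of 0.015, from -0.89 for CG14507 with CG7236 to 0.79 for CG11113 with CG12828. Only the latter pair and CG32109 with CG42445 (0.73) exceeded 0.7, and 3 pairs lay under -0.7. No median over pairs of other genes is set beside these values. These arrays also share the marker differences above, so the correlations are descriptions of 9 points. The genes most like CG12828 over the same arrays were CG5276 (0.96), the lysozyme LysX (0.96) and the muscle tropomyosin Tm2 (0.96), and those most like CG11113 were CG4669 (0.98), CG3106 (0.97) and CG10587 (0.97). CG5290 was closest to Naa35 (0.93), CG32109 to wda (0.95) and CG10254 to CG13901 (0.93). All of these partners were picked as the highest correlations over only 9 arrays. How high the best match of any gene would be was not tested, so no shared regulation is read from them. CG5290, CG11113, CG32109 and CG10254 also did not pass the filter on low values.

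The members are all protein coding and lie apart in the genome with a single exception. CG32109 and CG10973 are near neighbours, with the kinesin light chain gene Klc and CG10984 between them, and neither of those was lower in the cold (Klc -0.010, CG10984 -0.061). Of 37 coding neighbours of the members, 31 were measured and are no members, and 0 of these separated the temperatures. Over the whole array 57 of 13966 probe sets did, so 0 of 31 is near that share. Their median difference between 25 and 18 °C was -0.028, and 11 of 31 were lower at 18 °C. The widest was 0.64 for CG10252 beside CG10254, followed by 0.27 for CG11112 beside CG11113, both with arrays that overlapped between temperatures.

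Named genes met the same limits in 33 cases, with a median difference of 0.22, and 6.06% of them did not pass the low-value filter. Heat-shock proteins and chaperones fold proteins and are known to rise with temperature. Their mean was lower at 18 °C in 28 of 29 cases, against 42.1% of all probe sets. The average difference was -0.17 (log2, 18 °C minus 25 °C). Of the 29, 6 were lowest on all 3 cold arrays, against 57 of all 13966 probe sets. Their mean deviation lay between -0.19 and -0.04 at 18 °C and between -0.05 and 0.17 at 25 °C. Like the gut, male and muscle lists, it was lowest on CA10 and highest on CA18, and the part of body tissue in it was not tested. The study's own list of temperature-driven and circadian transcripts holds 139 measured genes with a CG number, and none of the members is among them. The study asked for a minimum daily range and for 24-h periodicity, and it used further time courses besides this one. The rule here asked for neither, so the absence of the members is not a comparison on equal terms. In that list, which was drawn up by the study partly from these very arrays, 0 of 139 were lowest and 14 highest on all 3 cold arrays. Over the whole array 57 of 13966 probe sets were lowest, so the 0 is near that share. Highest by the mirrored rule, which also asks for a difference of at least 0.1, were 194 of 13966.

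Whether the members also vary with time of day was asked in 5 contrasts other than that between the temperatures. They draw on the same 12 arrays as the rule, which had already excluded any gene that returned to its cold level at AA2 to AA10 or at any other warm array. They were fitted with limma to the 11145 probe sets past the filter, among them 9 members, with p-values adjusted by Benjamini and Hochberg. First, the AA day was compared with itself at 25 °C, subjective cryophase minus subjective thermophase. 0% of probe sets passed an adjusted p of 0.05 and 2.93% (327) an unadjusted p of 0.05, and 0 of 9 members passed either. The median of the members was 0.02 and that of all probe sets 0.02. CG14507 came closest at -0.14 (standard error 0.07, adjusted p = 0.984 from limma), with 5.95 on average at AA2 to AA10 and 6.09 at AA14 to AA22. The standard errors of the 9 members were 0.05 to 0.14, and since 0 of 11145 probe sets were called and the rule had kept out genes with a full dip at AA2 to AA10, the 0 of 9 does not show that members lack a rhythm.

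Next, the same hours were compared on consecutive days at the same temperature, CA14 to CA22 against AA14 to AA22. Again 0% of all probe sets passed after adjustment and 6.07% (677) before it, and 0 of 9 members passed either. CA minus AA was -0.13 in CG14507 (standard error 0.07, adjusted p = 0.747 from limma) and 0.21 in CG12828 (standard error 0.14, adjusted p = 0.747). The median of the members was -0.02, that of all probe sets -0.02.

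Within the cold phase, change from CA2 to CA10 was fitted as a slope. None of the probe sets (0%) passed after adjustment, 10.5% (1174) did before it, and no member did, the closest being CG10973 at -0.07 (standard error 0.09, adjusted p = 0.794 from limma). Over all 15 genes CA10 was the lowest cold array in 8, CA2 in 5 and CA6 in 2. Within the CA thermophase, CA22 minus CA14, 0% passed after adjustment and 9.65% (1076) before it. CG12259 was the only member of 9 with an unadjusted p under 0.05, higher by 0.25 on CA22 (standard error 0.08, unadjusted p = 0.0123, adjusted p = 0.511 from limma). CG12828 gave -0.345 over the same hours (standard error 0.24, adjusted p = 0.596).

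The 24-h cosine over the AA day, the shape that a clock-driven transcript would have, passed in 0% of probe sets after adjustment and in 3.52% (392) before it. Here CG14507 was the only member of 9 under an unadjusted 0.05, with an amplitude of 0.13 (standard error 0.04), a peak at hour 20.8 and an adjusted p of 0.985 from limma. The median amplitude was 0.05 in the members and 0.07 over all probe sets. The 6 members that did not pass the filter were read from a fit of all 13966 probe sets without the filter, where 0 probe sets passed in any of the 5 comparisons. CA22 minus CA14 was -0.45 in CG11113 (standard error 0.17, unadjusted p = 0.0273, adjusted p = 0.557 from limma), CA10 minus CA2 was -0.34 in CG5290 (standard error 0.17, adjusted p = 0.545), and CA minus AA in the thermophase was -0.18 in CG32109 (standard error 0.08, adjusted p = 0.769).

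**Figure D4:**
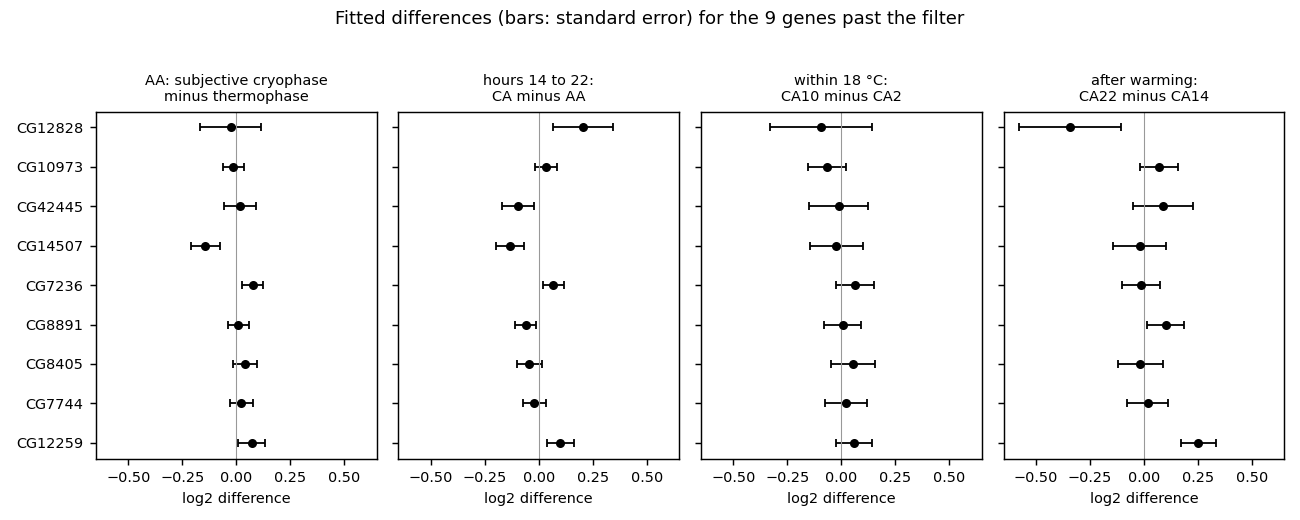
Fitted log2 differences (horizontal axis, bars give the standard error) of the 9 members past the filter in 4 contrasts within the cold or the warm arrays. No difference passed an adjusted p of 0.05, and CG12259 after warming, at 0.25, stands farthest from 0 in units of its standard error.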

How the data were processed

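Total RNA of pooled *y w* heads was hybridised to 12 Affymetrix Drosophila Genome 1 arrays, 1 per time point. The authors prepared the deposited expression values with RMA (background correction, normalization between arrays, summary per probe set). Its version is not given in the sources used here. Deposited values are log2 levels, a base read from their range since the deposited table does not name it. Array columns were assigned by their labels, and all 12 entered every fit.

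Of 14010 probe sets, 44 are controls. In the platform annotation 12443 have 1 gene and 327 several, and 12393 were matched by gene identifier to a RefSeq table of the assembly Release 6 plus ISO1 MT, used for names and neighbours only. Probe sets with several genes were not named. The low-value filter follows the methods of the study.

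The members, lists, named genes and tests were chosen with earlier results of these data known. Named were the 12 members with the largest difference, the 5 with the widest gap and the 5 with the highest level, the 3 on each side of both limits, the 3 smallest p per comparison, neighbours, and genes with several probe sets. CG5276 and the other genes most alike are the 3 with the highest correlation over the 9 warm arrays for the 5 largest members. Fits used limma 3.58.1 in R 4.3.3, with 4 groups of 3 arrays, or slopes within the CA phases, or a 24-h cosine for each day, tested on simulated data. Figures were drawn with matplotlib 3.10.9 under Python 3.11.15. P-values measure only the spread between single arrays. Alternatives were no filter, setting arrays to a common median, a trended and robust prior, a looser threshold (adjusted p under 0.2), the body-tissue index, hour as a block, other forms of the rule, and leaving out each array. A planned search of promoters and proteins was not run, and no sequence was used here.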

Additional observations from a re-analysis of the deposited data

Results flagged for a closer look

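CG12259 stood out on CA22, the last warm array of the thermocycle day, where it measured 5.324. The nearest of the other 8 warm arrays was CA18 at 5.194, and the gap between them was 0.516 of the range over the 9 arrays at 25 °C, above Dixon's critical value for 9 samples. Chance flags about 1 in 20 such groups, and 15 genes were examined.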

How the results depend on the processing

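Membership depended on the arrays and limits. It counted 5 genes with a minimum difference of 0.2, 9 among probe sets past the filter, 14 (10 of them members) after a common array median, 268 (11 members) with the CA thermophase alone as the warm side and 62 (14 members) with the AA day alone. With each array left out in turn it ran from 16 (without CA18) to 114 (without CA2). Without CA2, 12 members remained and CG12259, CG7236 and CG8405 did not. Single members were also lost without CA22 (CG12259), AA6 (CG8405) and AA10 (CG7744). The count was 33 without CA6, 52 without CA10, 25 without CA22 and 31 without AA22. Without CA10 and CA18, an alternative chosen after seeing the data, it was 74. Since the rule separates all cold from all warm arrays, leaving out 1 array could not turn the sign of a member's difference.

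The 0 calls of the 5 comparisons over all probe sets became 1 in the cold slope at an adjusted p under 0.2. They ranged from 0 to 1 with arrays left out between CA and AA (1 without AA14), and 0 members were called under any alternative. Fitted values were followed only for the 3 members with the smallest p in each comparison, and 4 slopes among them turned sign. In the cold, CG7236 ran from -0.058 (without CA2) to 0.182, CG12259 from -0.010 (without CA2) to 0.126, and CG10973 from -0.178 to 0.044 (without CA10). In the CA thermophase, CG12828 ran from -1.33 to 0.644 (without CA22). Each of these is a slope over 3 arrays, scaled to the span from the first to the last. With an end array dropped, 2 are left, and the value extrapolates the change between them to the whole span. With hour as a block, which pairs CA14, CA18 and CA22 with the same hours of AA, 0 probe sets were called, and the adjusted p from limma was 0.386 for CG14507, 0.508 for CG12259 and 0.290 for CG12828.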
